A study of Mus musculus with 17 samples.

Results

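Inflammasome genes were examined in F4/80hi macrophages isolated from kidneys of the NZB/W hybrid mouse, which develops lupus nephritis spontaneously. The set was chosen by name and held 10 genes, namely the sensors Nlrp3, Nlrc4, Aim2, Naip2, Naip5 and Nlrp1b, the adaptor Pycard, the caspases Casp1 and Casp4, and the pore former Gsdmd. Of these 10, 8 had a probe set among the 15780 named genes of the table, 1 probe set each, and Nlrc4 and Nlrp1b were not analysed here. Remission samples (n = 4) came from mice that had been in complete remission for 3 to 4 weeks. That remission had been induced with 1 dose of cyclophosphamide, a cytotoxic drug, together with anti-CD154, an antibody to the ligand of CD40, and 6 doses of CTLA4Ig, which blocks costimulation of T cells. Nephritic samples (n = 7) were taken 2 to 6 weeks after proteinuria began, before terminal renal failure. Prenephritic samples (n = 6) came from mice aged 8 to 16 weeks. Every sample was 1 array of bulk RNA, and no label says whether each one stands for its own animal, so the p-values reflect only the spread between these samples. Remission, drug treatment and the passage of time cannot be told apart, and the labels give no age for nephritic or remission mice. Age may differ between these mice and the prenephritic ones, and it cannot be told apart from nephritis, remission or treatment.

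Inflammasomes are cytosolic complexes that turn on inflammatory caspases. A sensor recognises a microbial product or a sign of cell damage and recruits caspase-1, directly or through the adaptor ASC, which Pycard encodes. Caspase-1 matures interleukin-1β and interleukin-18 and cuts gasdermin D, whose fragment forms pores in the membrane. Mouse caspase-11, the product of Casp4, binds bacterial lipopolysaccharide in the cytosol and cuts gasdermin D without a sensor of this kind. Sensors differ in what they recognise. NLRP3 responds to potassium loss and membrane damage and AIM2 to double-stranded DNA. NAIP2 binds the rod protein of bacterial secretion systems and NAIP5 binds flagellin, and both pass the signal to NLRC4.

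The promoters of Pycard, Naip2 and Naip5 are printed because these genes were among the 4 that were lower in remission than in nephritic samples. Gsdmd, the other one, had no entry in the promoter table. Each sequence is the 250 bases before the annotated start site, 5′ to 3′ on the gene's strand, from RefSeq on GRCm38.p6. Capitals mark AGGAAGT on either strand, the type of motif bound by ETS factors such as PU.1 of macrophages. The motif was chosen after the sequences had been seen. The Pycard window is chr7:127993868-127994117, the Naip2 window chr13:100202123-100202372 and the Naip5 window chr13:100247337-100247586, each on the minus strand.
Pycard: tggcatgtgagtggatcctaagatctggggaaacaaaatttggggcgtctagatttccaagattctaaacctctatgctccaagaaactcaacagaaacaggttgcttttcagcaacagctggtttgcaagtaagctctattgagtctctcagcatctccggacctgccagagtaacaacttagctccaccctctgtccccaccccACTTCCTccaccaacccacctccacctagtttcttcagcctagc
Naip2: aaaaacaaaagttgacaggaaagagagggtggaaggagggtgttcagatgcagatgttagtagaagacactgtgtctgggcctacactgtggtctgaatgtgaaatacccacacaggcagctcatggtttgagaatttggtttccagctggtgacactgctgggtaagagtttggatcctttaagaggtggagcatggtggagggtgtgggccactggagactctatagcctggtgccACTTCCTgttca
Naip5: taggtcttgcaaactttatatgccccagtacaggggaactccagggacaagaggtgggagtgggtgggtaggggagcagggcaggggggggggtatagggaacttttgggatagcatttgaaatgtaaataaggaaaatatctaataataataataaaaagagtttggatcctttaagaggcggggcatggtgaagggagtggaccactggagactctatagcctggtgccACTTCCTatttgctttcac

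Naip2 and Naip5 are neighbouring genes of one family, and a stretch of 83 bases next to their start sites aligned without a gap at 92.8% identity (77 identical bases). Naip genes are known as near-identical copies of one another, so how well the probe sets separate Naip2, Naip5 and their neighbour Naip6 is uncertain; transcripts and probes were not aligned here. The ETS-type motif lay 44 to 38 bases before the start site of Pycard, 12 to 6 before that of Naip2 and 19 to 13 before that of Naip5. A window held it for 6 of the 9 listed genes with a promoter entry, and 7.69% of all 32851 windows of that length held it. Since the motif was picked from these sequences, and the Naip2 and Naip5 matches lie in the stretch they share, nothing is read from that count. The interferon-stimulated response element core (GAAA, any 2 bases, GAAA), the ETS-IRF composite (GGAA, any 2 bases, GAAA) and the gamma-activated sequence TTCNNNGAA were found on neither strand in any window of the 9 genes. They occurred in 2.98%, 2.3% and 7.02% of all windows. AGGAAGT therefore overlapped none of these 3 motifs in the windows of the 9 genes.

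The sorted cells carried macrophage transcripts at a high level in every group. The mean log2 level of 7 macrophage markers, among them Adgre1, the gene of the sorting marker, ran from 12.15 to 12.52 in remission, from 12.41 to 12.65 in nephritic and from 12.12 to 12.44 in prenephritic arrays. Of 8 neutrophil markers, 5 lay below 4.995, the lower quartile of all values, in each group, and 0 were called in any comparison. S100a8 and S100a9 lay above it and varied widely between arrays, with SDs of up to 1.91 and 2.12 in prenephritic arrays. The summed linear level of the 8 ran from 239.9 to 1723 in remission, from 257.6 to 1278 in nephritic and from 257.6 to 3868 in prenephritic arrays. Tubule transcripts were plentiful and uneven. The summed linear level of 9 proximal tubule markers ran from 14130 to 33330 in remission, from 4918 to 23510 in nephritic and from 8061 to 25190 in prenephritic arrays. A tubule score, the mean centred log2 value of 16 proximal and distal tubule genes, ran from −2.23 in nephritic replicate 3 to 1.41 in remission replicate 2. In bulk RNA, fewer cells of a type and less RNA per cell cannot be told apart.

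Across the 3 groups, the adaptor gene Pycard was the member with the clearest difference. It was 1.77-fold higher in nephritic than in prenephritic samples, and 0.617-fold in remission relative to nephritic samples. The sensors Nlrp3 and Aim2 and the caspases Casp1 and Casp4 did not pass the test in any comparison. Gsdmd, Naip2 and Naip5 were lower in remission than in nephritic samples, but these calls were lost once the tubule score was a covariate. That score itself differed between these groups. The Naip2 and Naip5 calls were also lost when some single arrays were left out. No member passed between remission and prenephritic samples.

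**Figure D1:**
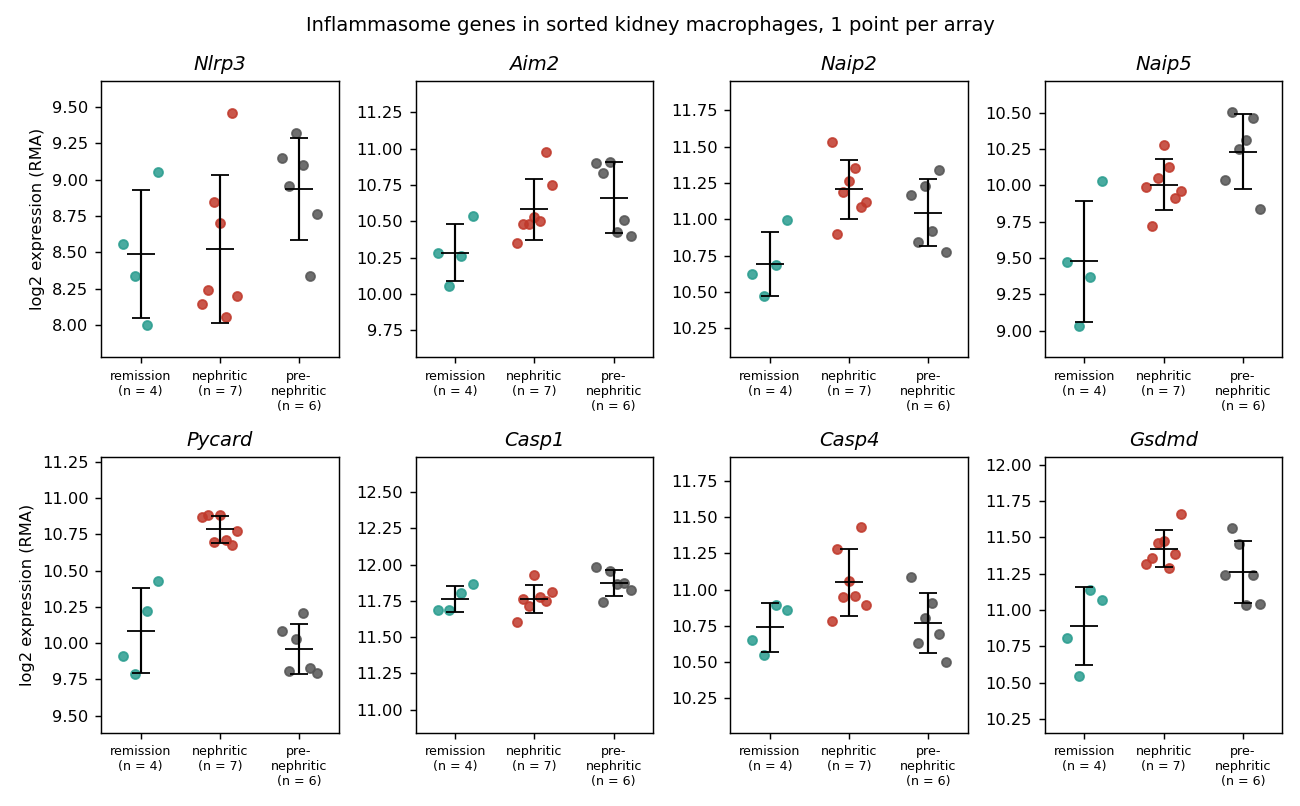
Log2 expression (RMA) of the 8 measured genes on the vertical axis, with 1 point per array and groups on the horizontal axis; bars give the mean ± SD and every panel spans the same log2 range. The 7 nephritic arrays sit above every other array for Pycard, between 10.67 and 10.88, while Casp1 stays between 11.60 and 11.98 in all 17 arrays.

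Values are log2 RMA expression, a background-corrected, quantile-normalised probe set summary. A level can be compared between samples but not between genes, because probes differ. Differences were tested with limma over all 15780 genes, are given as log2 difference ± SE, and were called at an adjusted p below 0.05 (Benjamini-Hochberg).

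Nephritic samples were first set against prenephritic ones, a comparison in which nephritis and age cannot be told apart. Of the 8 members, 1 was higher and 0 were lower, against 6.74% of all genes called higher and 5.32% called lower. With an unadjusted p under 0.05, 2 members were higher and 0 lower, against 12.5% and 12.8% of all genes. The median difference of the members was 0.04, and that of all genes −0.02.

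Pycard had 10.67, 10.77 and 10.88 (lowest, median and highest) in nephritic arrays, against 9.79, 9.93 and 10.21 in prenephritic arrays. The ranges did not overlap, which held for 1 of the 8 members, while 3.07% of all genes lay wholly higher and 1.61% wholly lower in nephritic arrays (4.68% in all). Nephritic arrays averaged 10.78 ± 0.09 (SD, n = 7), against 9.96 ± 0.17 (SD, n = 6) for prenephritic arrays. The difference of 0.82 ± 0.10 passed the limma test (adjusted p = 6.39e-05). It also passed under all 26 alternatives, with adjusted p between 2.6e-05 and 0.000854.

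Among the caspases, Casp4 had 10.78, 10.95 and 11.43 in nephritic arrays, against 10.50, 10.75 and 11.09 in prenephritic arrays (lowest, median and highest). The groups overlapped, and the difference of 0.28 ± 0.11 did not pass (limma, adjusted p = 0.126). Casp1 had 11.60, 11.76 and 11.93 in nephritic arrays, against 11.74, 11.87 and 11.98 in prenephritic arrays. Its difference of −0.11 ± 0.06 did not pass either (limma, adjusted p = 0.261), and its 95% interval ran from −0.23 to 0.01. Casp1 and Casp4 are neighbours in the genome, and their differences had opposite signs.

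Nlrp3 was the most scattered sensor. It had 8.05, 8.24 and 9.46 in nephritic arrays, against 8.33, 9.03 and 9.32 in prenephritic arrays (lowest, median and highest). Nephritic replicate 6 held the highest value of all 17 arrays, and prenephritic replicate 5 the lowest of its group. The difference was −0.42 ± 0.23 (limma, adjusted p = 0.278). With both arrays left out it was −0.69 (adjusted p = 0.0325, the lowest of 26 alternatives that reached 0.444). These arrays hold the Nlrp3 values that go most against the difference, so a larger one without them follows from which were left out.

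The other sensors and the pore former overlapped between the groups. Aim2 averaged 10.58 ± 0.21 in nephritic arrays (SD, n = 7) and 10.66 ± 0.24 in prenephritic arrays (SD, n = 6), a difference of −0.08 ± 0.12 (limma, adjusted p = 0.74). In prenephritic arrays Aim2 lay at 10.83 to 10.91 in replicates 1, 2 and 3 and at 10.40 to 10.51 in replicates 4, 5 and 6. Naip2 averaged 11.20 ± 0.20 in nephritic and 11.04 ± 0.23 in prenephritic arrays (limma, adjusted p = 0.437). Naip5 had a median of 9.99 in nephritic and 10.28 in prenephritic arrays, a difference of −0.23 ± 0.14 (limma, adjusted p = 0.351). Gsdmd averaged 11.42 ± 0.13 in nephritic and 11.26 ± 0.21 in prenephritic arrays, with a 95% interval of the difference from −0.07 to 0.38 (limma, adjusted p = 0.397).

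Some markers of other cell types were also higher in nephritic arrays, and some were lower. Of 6 measured B and plasma cell markers, 4 rose and 1 fell. Jchain, a subunit of secreted antibody, rose by 2.76 and Mzb1, a plasma cell chaperone, by 1.95. The marker that fell was Tnfrsf17, with a difference of −1.73 and ranges that did not overlap (limma, adjusted p = 0.000345). The summed linear level of the 6 ran from 5446 to 10920 in nephritic and from 2622 to 5195 in prenephritic arrays, so the sums did not overlap. Of 8 T and NK cell markers, 3 rose and 1 fell, with sums from 513.1 to 693.2 in nephritic and from 502.1 to 2005 in prenephritic arrays. Of 6 conventional dendritic cell markers, 1 rose and 2 fell, and of 7 macrophage markers 2 rose. Of 5 measured monocyte markers, 2 rose in nephritic arrays, Plac8 by 0.86 ± 0.21 and Ccr2, the receptor that brings monocytes into tissue, by 0.40 ± 0.10. The summed linear level of the 5 ran from 5293 to 7762 in nephritic and from 3324 to 6261 in prenephritic arrays, so the groups overlapped. The part of these cell types in the Pycard difference was not tested.

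**Figure D2:**
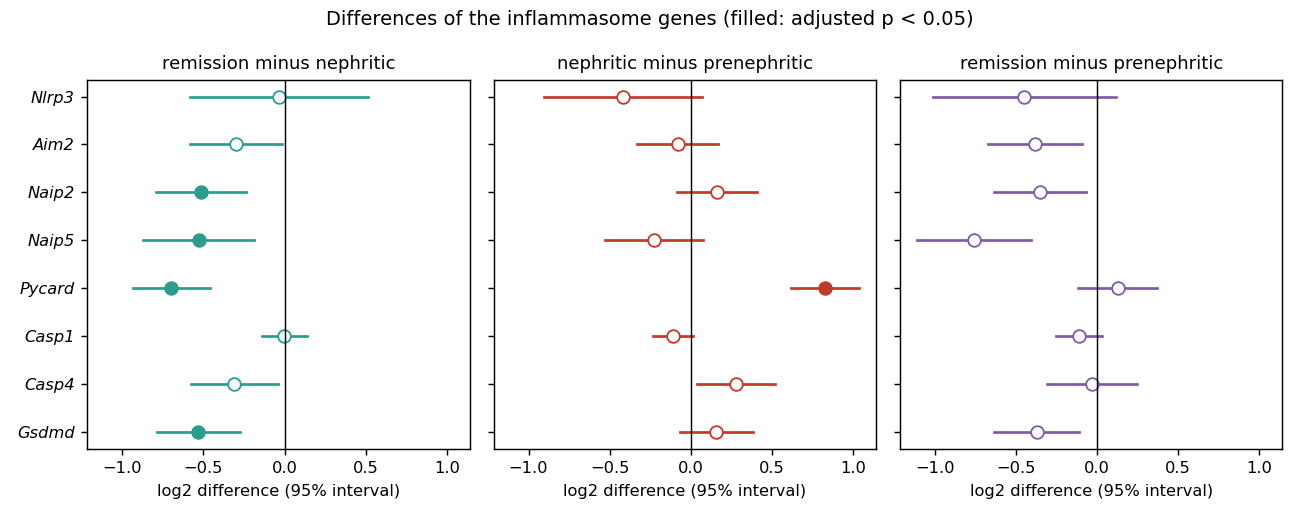
Log2 difference with its 95% interval on the horizontal axis for the 8 genes, in 1 panel per comparison; filled points passed an adjusted p of 0.05 (limma). Pycard is the filled point of nephritic minus prenephritic, 4 genes are filled in remission minus nephritic, and none is filled in remission minus prenephritic.

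Remission samples were next set against nephritic ones, to see which levels differ after treatment. All 8 members had a negative difference, as did 8799 of all 15780 genes, and those of Casp1 and Nlrp3 were near 0 and turned positive under some alternatives. Of the 8, 4 passed as lower and 0 as higher, against 10% of all genes called lower and 3.27% called higher. The 4 became 2 without remission replicate 1 or without remission replicate 2. At an unadjusted p under 0.05, 6 were lower and 0 higher, against 18.5% and 10.8% of all genes. The median difference was −0.41 over the members and −0.03 over all genes. The nephritic arrays serve in both comparisons, so the values of the first and second comparison are not independent of each other. The tubule score was higher in remission, where it was −0.07 in replicate 4 and 0.69 to 1.41 in the other 3 arrays, against −2.23 to 0.60 in nephritic arrays.

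Pycard had 9.91, 9.78, 10.22 and 10.43 in remission replicates 1 to 4, against 10.67, 10.77 and 10.88 (lowest, median and highest) in nephritic arrays. All 4 remission arrays lay below all 7 nephritic arrays, as they did for 2 of the 8 members and 6.95% of all genes. Another 1.7% of all genes lay wholly higher in remission (8.65% in all). The difference was −0.70 ± 0.11 (limma, adjusted p = 0.000802). It passed under all 26 alternatives and was −0.61 with the tubule score as a covariate (adjusted p = 0.00778, the highest of a range that began at 0.000172).

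Gsdmd had 10.81, 10.55, 11.14 and 11.07 in remission replicates 1 to 4, against 11.29, 11.38 and 11.66 in nephritic arrays (lowest, median and highest). The groups did not overlap. The difference was −0.53 ± 0.12, a level 0.692-fold that of nephritic arrays (limma, adjusted p = 0.0082). With the tubule score as a covariate it was −0.38 and did not pass (adjusted p = 0.0776), while it passed under the other 25 alternatives with adjusted p from 0.00376.

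The flagellin and rod protein sensors overlapped between the groups. Naip2 had 10.62, 10.47, 10.68 and 10.99 in remission replicates 1 to 4, against 10.90, 11.19 and 11.53 in nephritic arrays (lowest, median and highest). Only remission replicate 4 reached into the nephritic range. The difference was −0.51 ± 0.13 (limma, adjusted p = 0.0164). It did not pass without remission replicate 1 (adjusted p = 0.0601), without remission replicate 2 (0.0797) or with the tubule score as a covariate (−0.37, adjusted p = 0.129), the highest of 26 alternatives that began at 0.00325.

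Naip5 had 9.48, 9.03, 9.37 and 10.03 in remission replicates 1 to 4, against 9.72, 9.99 and 10.28 in nephritic arrays (lowest, median and highest). Remission replicate 4 again lay within the nephritic range. The difference of −0.53 ± 0.16 passed narrowly (limma, adjusted p = 0.0397). It passed under 14 of 26 alternatives, with adjusted p from 0.00435 to 0.258, the last with the tubule score as a covariate (−0.35). Leaving out any 1 of remission replicates 1, 2 and 3 or nephritic replicates 1, 3, 4, 5 and 7 ended the call (adjusted p between 0.0572 and 0.182).

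The remaining members did not pass. Casp1 averaged 11.76 in both groups, with SD 0.09 in remission (n = 4) and 0.10 in nephritic arrays (n = 7). The 95% interval of its difference ran from −0.14 to 0.14 (limma, adjusted p = 0.989). Casp4 had 10.65, 10.55, 10.90 and 10.86 in remission replicates 1 to 4, against 10.78, 10.95 and 11.43 in nephritic arrays, a difference of −0.31 ± 0.13 (limma, adjusted p = 0.114). Aim2 had 10.28, 10.06, 10.26 and 10.53 in remission, against 10.35, 10.51 and 10.98 in nephritic arrays, a difference of −0.30 ± 0.13 (limma, adjusted p = 0.145). Nlrp3 had 8.56, 8.34, 8.00 and 9.05 in remission replicates 1 to 4 and differed by −0.03 ± 0.26, with a 95% interval from −0.58 to 0.52 (limma, adjusted p = 0.955).

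About the group means, the Pearson correlation of the tubule score over the 17 arrays was negative for all 8 members, called or not, as a description of arrays that share their normalisation. It was −0.50 with Gsdmd, −0.44 with Naip5, −0.43 with Naip2, −0.36 with Nlrp3, −0.32 with Casp1, −0.32 with Pycard, −0.27 with Aim2 and −0.11 with Casp4. The share of all genes with a negative correlation was not worked out, so nothing particular to the members is read from the sign. Remission replicate 4, the remission array with the lowest tubule score, held the highest remission value of 6 members, while replicate 3 held that of Gsdmd and Casp4. Proximal tubule markers had a positive difference in 9 of 9 measured genes, of which 0 passed limma's test and 7 had an unadjusted p under 0.05. Distal tubule markers had one in 7 of 7, and 2 passed as higher in remission, Calb1 by 1.91 and Pvalb by 1.99 (limma, adjusted p = 0.0194 and 0.0211). Macrophage markers had a median difference of −0.01, with 2 of 7 lower and 0 higher. Endothelial markers had a positive difference in 6 of 7, of which 0 passed and 2 had an unadjusted p under 0.05. Over all genes, 10% were called lower in remission and 6.95% lay wholly lower. T and NK cell markers were lower in 5 of 8, all 5 with ranges that did not overlap. The summed linear level of the 8 ran from 459.6 to 652.9 in remission and from 513.1 to 693.2 in nephritic arrays. B and plasma cell markers were lower in 2 of 6 and higher in 1, with sums from 3905 to 5026 in remission and from 5446 to 10920 in nephritic arrays. Conventional dendritic cell markers were lower in 2 of 6. Monocyte markers were lower in 2 of 5, and their summed linear level ran from 3977 to 5362 in remission and from 5293 to 7762 in nephritic arrays. The part of these cell types in the lower members was not tested.

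**Figure D3:**
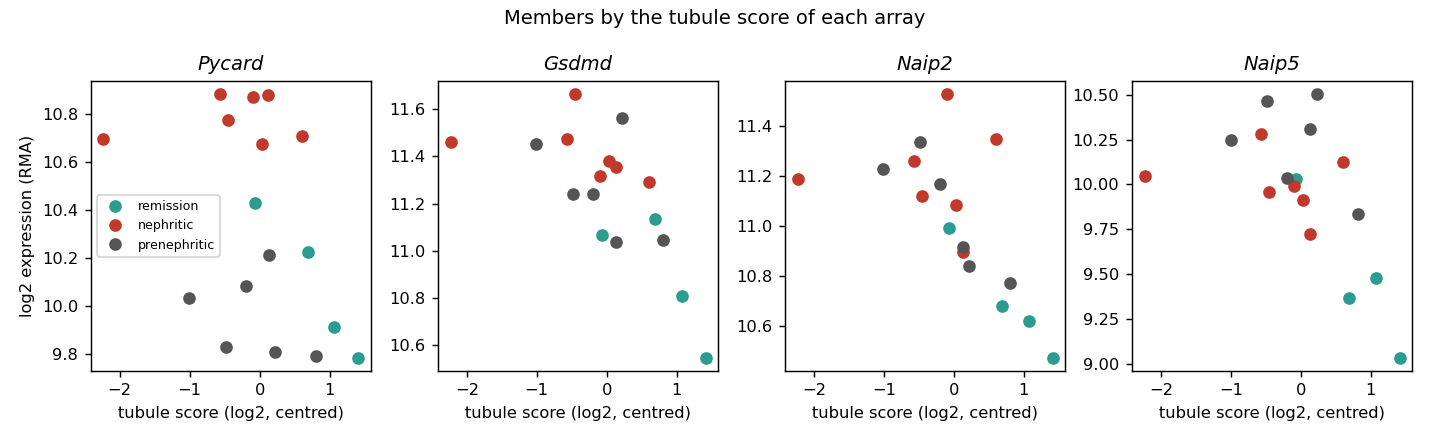
Log2 expression (RMA) of Pycard, Gsdmd, Naip2 and Naip5 on the vertical axes against the tubule score of the same array on the horizontal axes, with 1 point per array coloured by group. Remission arrays with scores of 0.69 to 1.41 hold the lowest Naip2 and Naip5 values, and nephritic arrays stand above the rest for Pycard at every score.

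Remission was also set against the prenephritic state. None of the 8 members passed in limma, against 0.00634% of all genes (1 gene). The ranges of all 8 overlapped, while 1.93% of all genes lay wholly lower and 0.393% wholly higher in remission (2.32% in all). At an unadjusted p under 0.05, 4 members were lower and 0 higher, against 12.3% and 6.38% of all genes. Naip5 had the largest difference in size among the members. Its remission values of 9.48, 9.03, 9.37 and 10.03 stood against 9.84, 10.28 and 10.50 (lowest, median and highest) in prenephritic arrays. The groups overlapped through remission replicate 4, and the difference was −0.76 ± 0.17 (limma, adjusted p = 0.122). It passed under 4 of 26 alternatives, with adjusted p from 0.021 to 0.486, the last with the tubule score as a covariate. The 4 included the fits without prenephritic replicate 6 (0.0251) and without remission replicate 4 (0.0326). These arrays held the lowest prenephritic and the highest remission value of Naip5, so a larger difference without them follows from which were left out. Proximal tubule markers had a positive difference in 9 of 9 and distal ones in 7 of 7, with medians of 0.83 and 0.98. Of these, 0 passed, and their part was not tested. The other 3 members with an unadjusted p under 0.05 were Gsdmd (−0.37 ± 0.12), Aim2 (−0.38 ± 0.14) and Naip2 (−0.35 ± 0.13). Their adjusted p was 0.195, 0.216 and 0.221 by limma. Pycard averaged 10.09 ± 0.29 in remission arrays (SD, n = 4) and 9.96 ± 0.17 in prenephritic arrays (SD, n = 6), and the 95% interval of the difference ran from −0.12 to 0.37. Casp4 differed by −0.03 ± 0.13, Casp1 by −0.11 ± 0.07 and Nlrp3 by −0.45 ± 0.27, with adjusted p of 0.91, 0.365 and 0.356.

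The members were correlated with one another to different degrees across arrays. About the group means, Pearson's r over the 17 arrays was highest for Aim2 with Gsdmd (0.63), Nlrp3 with Aim2 (0.63) and Naip2 with Naip5 (0.59). It was negative only for Naip2 with Nlrp3 (−0.03) and for Naip2 with Casp4 (−0.02). No share over all pairs of genes was worked out for comparison. The genes most like Pycard over the 17 arrays were Hvcn1 (r = 0.98, and 0.88 about the group means), Clcn7 (0.96 and 0.80) and Car13 (0.96 and 0.76). For Naip5 they were Camk2g (0.91 and 0.80), Ap1g2 (0.91 and 0.79) and Btk (0.88 and 0.78), and for Gsdmd Rbck1 (0.93 and 0.86), Miip (0.91 and 0.90) and Syk (0.91 and 0.81). These correlations are descriptions, since the points share groups and normalisation.

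Other genes of the pathway were read from 5 lists with 81 entries, of which 56 were measured. In nephritic minus prenephritic samples 10 rose and 6 fell, with a median of 0.05, against 6.74% and 5.32% of all genes and a median of −0.02. In remission minus nephritic samples 1 was higher and 16 were lower, with a median of −0.23, against 3.27% and 10% of all genes and a median of −0.03, and 10 were called in all in the fit that held the tubule score. The 17 called there became 9 without remission replicate 2 and 11 without remission replicate 1. In remission minus prenephritic samples 0 of 56 passed, against 1 of all 15780 genes. At an unadjusted p under 0.05, 21 were lower and 0 higher, against 12.3% and 6.38% of all genes. The median there was −0.24, against −0.05 over all genes. In remission 4 lay wholly lower and 0 wholly higher, against 1.93% and 0.393% of all genes.

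Among other sensors, 2 of 7 rose in nephritic samples and 3 of 7 were lower in remission. The shares over all genes were 6.74% and 10%, and these counts rest on few genes. Nod1, a cytosolic sensor of bacterial peptidoglycan, averaged 11.02 ± 0.19 in nephritic arrays (SD, n = 7) and 10.27 ± 0.20 in prenephritic arrays (SD, n = 6), and rose by 0.75 ± 0.11 (limma, adjusted p = 0.000364). In remission it averaged 9.92 ± 0.24 (SD, n = 4), lower than in nephritic arrays by −1.10 ± 0.13 (limma, adjusted p = 9.47e-05). Mefv, which encodes the inflammasome sensor pyrin, rose by 1.19 ± 0.32 (limma, adjusted p = 0.0216) and differed by −1.68 ± 0.36 in remission (limma, adjusted p = 0.00592). Nlrx1, which encodes a mitochondrial protein, differed by −0.50 ± 0.14 in remission (limma, adjusted p = 0.0215). Naip6, another flagellin sensor, differed by −0.42 ± 0.21 and −0.09 ± 0.24 in those comparisons, with adjusted p of 0.231 and 0.856.

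Of 8 DNA sensing and PYHIN genes, the family of Aim2, 1 rose in nephritic samples and 2 were lower in remission, counts of few genes to be read against the shares of 6.74% and 10% over all genes. Zbp1, a sensor of Z-form nucleic acids, rose by 0.65 ± 0.15 (limma, adjusted p = 0.0104) and differed by −1.08 ± 0.17 in remission (limma, adjusted p = 0.000826). Ifi209 differed by −0.48 ± 0.12 in remission (limma, adjusted p = 0.0144).

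Of 19 activators and regulators, 3 rose and 2 fell in nephritic samples, and 7 were lower in remission. Over all genes the shares were 6.74%, 5.32% and 10%. Pstpip1, whose product binds pyrin, rose by 0.99 ± 0.15 (limma, adjusted p = 0.000459), and Myd88, the adaptor of Toll-like and interleukin-1 receptors, by 0.57 ± 0.11 (adjusted p = 0.00239). P2rx4, which encodes an ATP-gated channel, rose by 0.66 ± 0.12 (limma, adjusted p = 0.00184). P2rx7, the gene of another such channel, had a difference of −0.20 ± 0.12 that did not pass (limma, adjusted p = 0.336). In remission minus nephritic samples P2rx7 differed by 0.19 ± 0.14 (limma, adjusted p = 0.374). Irf8, a transcription factor that drives Naip genes in mouse macrophages, fell by 0.42 on the log2 scale, with 11.60 ± 0.22 in nephritic arrays (SD, n = 7) and 12.02 ± 0.13 in prenephritic arrays (SD, n = 6). Its adjusted p was 0.039 by limma. In remission, Pstpip1 (−1.12 ± 0.17), Myd88 (−0.81 ± 0.12), Gbp2 (−0.74 ± 0.21), a guanylate-binding protein gene, and P2rx4 (−0.50 ± 0.14) were lower than in nephritic samples. Their adjusted p ran from 0.00051 to 0.0302. Nek7, the kinase that NLRP3 needs, differed by 0.12 ± 0.06 and −0.07 ± 0.07, with adjusted p of 0.212 and 0.576.

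Of 11 substrates and pore executors, 2 rose and 4 fell in nephritic samples, and 1 was higher and 2 were lower in remission than in nephritic samples. Over all genes the shares were 6.74%, 5.32%, 3.27% and 10%. Il1b, the main cytokine substrate of caspase-1, differed by 0.16 ± 0.11 in nephritic minus prenephritic samples (limma, adjusted p = 0.424) and by −0.12 ± 0.13 in remission minus nephritic samples (adjusted p = 0.601). Il18 fell in nephritic samples, with 10.94 ± 0.18 (SD, n = 7) against 11.28 ± 0.17 in prenephritic samples (SD, n = 6; limma, adjusted p = 0.0359). Gsdme, another pore former of the gasdermin family, fell by 0.50 (limma, adjusted p = 0.00921), and the receptor gene Il1r1 by 1.19 (adjusted p = 0.000572). The antagonist genes Il1rn and Il18bp rose by 2.75 ± 0.28 and 0.89 ± 0.16 (limma, adjusted p = 1.57e-05 and 0.00162). In remission they were lower than in nephritic samples by −2.49 ± 0.32 and −1.09 ± 0.18 (adjusted p = 0.00018 and 0.000979). Il1r1 was the 1 gene of the 5 lists that was higher in remission, by 0.69 ± 0.21 (limma, adjusted p = 0.04).

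Of 11 other caspases and death adaptors, 2 rose in nephritic samples and 2 were lower in remission. These are counts of few genes, to be read against 6.74% and 10% of all genes. Ripk3, the kinase of necroptosis, rose by 0.39 ± 0.11 (limma, adjusted p = 0.024) and differed by −0.90 ± 0.12 in remission (adjusted p = 0.000226). Mlkl, the pore former that RIPK3 activates, stood at 0.40 ± 0.14 in nephritic samples (limma, adjusted p = 0.0709) and at −0.79 ± 0.16 in remission (adjusted p = 0.00352). Cflar, an inhibitor of caspase-8, rose by 0.33 ± 0.10 (limma, adjusted p = 0.0349). Casp8 itself differed by 0.08 ± 0.11 and −0.35 ± 0.12, with adjusted p of 0.701 and 0.0686.

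**Figure D4:**
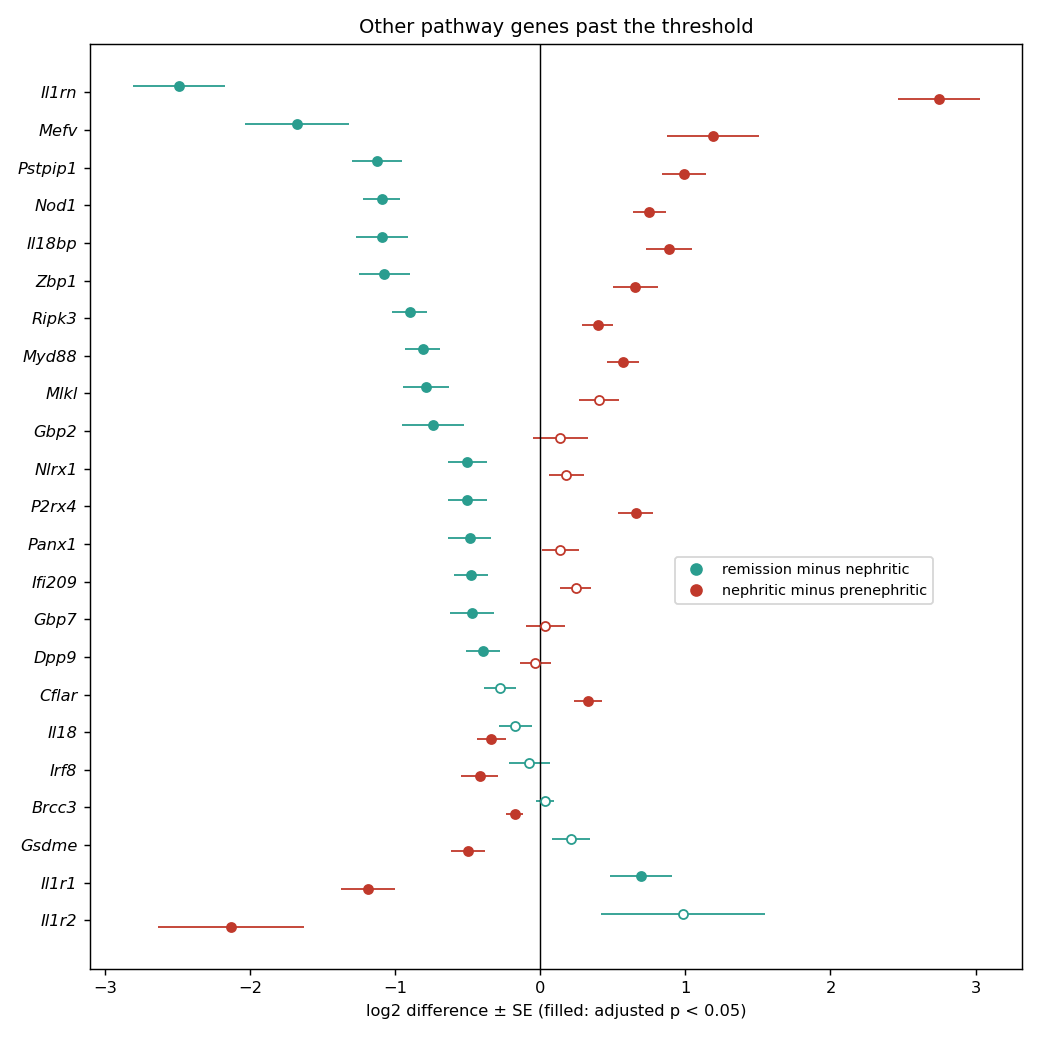
Log2 difference ± SE on the horizontal axis for the other pathway genes that passed in either comparison, 1 gene per line; filled points passed an adjusted p of 0.05 (limma). Il1rn has the largest differences, 2.75 in nephritic minus prenephritic and −2.49 in remission minus nephritic samples. Il1r1, Il1r2 and Gsdme are among the genes that lie on the other side of 0.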

How the data were processed

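Biotinylated cRNA was made from total RNA of kidney macrophages by Affymetrix's protocol, per the labels' protocols, for 17 arrays. The deposited values are log2 expression, and RMA is the tool named in the submitters' processing notes, without a version. No source used here states the probe definition or a filter. Quantile normalisation in RMA removes differences of total RNA per cell. Differences of dim signals can also be compressed on arrays. The number of arrays limits the precision.

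The table held 16539 probe sets, with 64 controls, 15780 named by 1 symbol in GEO's platform annotation and 695 unnamed. All 8 measured members matched RefSeq (GRCm38.p6) by Entrez identifier. All 17 arrays entered 1 linear model of group means in limma 3.58.1 in R 4.3.3 (14 residual degrees of freedom, two-sided moderated tests, Benjamini-Hochberg adjustment over 15780 genes, threshold 0.05, no filter). Standard errors and 95% intervals are from that fit. It was tested on simulated data. Groups came from the sample titles. Alternatives were 9 settings and leaving out each array in turn.

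The members, the pathway lists, the marker lists and several alternatives were chosen with earlier results of these data known. The named genes were all measured members, up to 4 called genes with the smallest adjusted p of each list and comparison, and Il1b, Il18, Il1rn, Casp8 and Nek7. The 3 genes most correlated with each of the 3 members of widest group range were also named. Naip6, Il1r2, P2rx7 and the single cell type markers given with values were named outside that rule after their values were seen.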

Additional observations from a re-analysis of the deposited data

How the results depend on the processing

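Pycard kept its direction and its call in nephritic minus prenephritic and in remission minus nephritic samples under all 26 alternatives. The count of members lower in remission than in nephritic samples, 4 as reported, was 1 in the fit that held the tubule score, and 2 to 4 when 1 array was left out. Members lower in nephritic than in prenephritic samples numbered 1 (Nlrp3) without nephritic replicate 6 and prenephritic replicate 5, against 0. Members lower in remission than in prenephritic samples numbered 1 (Naip5) with array weights, 1 with the replicate number as a block, and 0 to 1 when 1 array was left out, against 0. Called pathway genes in remission minus nephritic samples numbered 10 with the tubule score and 9 to 19 with 1 array left out, against 17. In remission minus prenephritic samples they numbered 5 with array weights, 4 with the replicate block and 0 to 2 with 1 array left out, against 0. The replicate numbers were not taken to pair the samples, since no label ties them and not every pair deviated together: correlations of same-numbered arrays ran from −0.26 to 0.80, with 8 of 14 over 0.1, and 2 of 14 arrays correlated best with their own number.

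Counts over all genes also moved. In nephritic minus prenephritic samples, lower genes were 840 as reported, 537 with median centring, 1560 with the tubule score and 477 without those 2 arrays. In remission minus nephritic samples, higher genes were 516, against 1239 with array weights and 1064 with the replicate block, and 182 to 981 with 1 array left out. Lower genes were 1584, against 2385 with array weights and 819 with the tubule score, and 839 to 1940 with 1 array left out. In remission minus prenephritic samples, 0 were higher and 1 lower, against 69 and 289 with array weights and 234 and 244 with the replicate block. The causes were not tested.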

Other observations

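In the RefSeq gene order of GRCm38.p6, Trim72 is the protein-coding gene between Pycard and Itgam, which encodes the integrin CD11b. Itgam averaged 9.59 ± 0.27 in nephritic arrays (SD, n = 7) and 7.50 ± 0.36 in prenephritic arrays (SD, n = 6), and rose by 2.09 ± 0.17 (limma, adjusted p = 3.19e-06). In remission it averaged 7.99 ± 0.37 (SD, n = 4) and differed from nephritic arrays by −1.60 ± 0.19 (limma, adjusted p = 0.000133). Prss36, a gene on the other side of Pycard, had differences of the opposite sign, −0.36 ± 0.13 and 0.41 ± 0.14 in those comparisons, which did not pass (limma, adjusted p = 0.0811 and 0.0691). This neighbourhood was looked at after the values were seen. Dixon's test flagged no array among 24 groups of member values.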
